A study of Mus musculus with 8 samples.

Results

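The genes described here are 10 Wnt ligands, secreted antagonists and feedback genes: Wnt5a, Wnt11, Sfrp1, Sfrp2, Frzb, Dkk1, Dkk2, Dkk3, Axin2 and Lef1. They were chosen by name, with earlier results of these data known. Every probe with a platform gene symbol among the 10 was taken, which gave 18 of the 45281 probes on the array. Total RNA was measured in EGFP-positive hindlimb cells of E12.5 mouse embryos (strain C57BL/6J;129) on Illumina whole-genome mouse BeadChips, with 4 arrays labelled wildtype and 4 labelled Bapx1 null. Bapx1 (Nkx3-2) is a homeobox gene of the early skeleton, and cells of both groups were sorted on EGFP driven by the Bapx1 locus. In the wildtype group EGFP followed an internal ribosomal entry site in the 3′ UTR of 1 Bapx1 allele (Bapx1 +/tm2.Tlu). In the null group EGFP was inserted directly behind the start codon on both alleles, and a short stretch of Bapx1 sequence was deleted there (Bapx1 tm4.Tlu/tm4.Tlu). The reporter and its dose thus differed between the groups together with the genotype. The sort aimed at cells with an active Bapx1 locus, and its purity was not tested here. The number of embryos behind each array was not given in the sources used here, and p-values measure the spread between these 8 samples.

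Wnt proteins are secreted ligands that bind Frizzled receptors. In the canonical branch, Lrp co-receptors act with Frizzled, beta-catenin escapes a destruction complex built on Axin, and TCF/LEF factors switch on target genes, Axin2 among them, which feeds back on the pathway. In a second branch, ligands such as Wnt5a act through the receptor tyrosine kinase Ror2 and the planar polarity proteins without beta-catenin. Secreted Frizzled-related proteins (Sfrp1, Sfrp2, Frzb) bind Wnt ligands outside the cell, whereas Dkk1 and Dkk2 bind the Lrp co-receptors. In the limb bud, Wnt5a is needed for outgrowth, and canonical signalling holds mesenchyme back from forming cartilage.

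Nkx3-2, the targeted gene, was detected only on the arrays labelled null. Neither of its 2 probes was above background on any of the 4 arrays labelled wildtype, and both were detected on all 4 labelled null. The normalized log2 level of the brighter probe was 4.67, 4.54, 4.45 and 4.41 on the arrays labelled wildtype and 9.01, 8.76, 7.97 and 8.19 on those labelled null. The labelled null group was at least 10.4-fold higher by this probe and at least 8.07-fold higher by the other (limma, adjusted p = 9.52e-05 for both). The place of the probes relative to the targeted sequence was not found in the files or methods, and a probe outside the deleted part does not check the null label. The wildtype genotype carries an unmodified Bapx1 allele, and its reporter allele was designed to express Bapx1 as well. Neither probe was above background in that group, and why was not tested. This gene thus did not bear out the labels, and groups below are named by them.

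The arrays detected between 18375 and 20256 probes, and 19568 probes of 10772 genes passed the detection filter (detection p under 0.05 on at least 4 arrays). The hindlimb factors Pitx1 and Tbx4 were measured, and the forelimb factor Tbx5 did not pass. Over all probes, 149 (0.761%) were called changed, 63 higher (0.322%) and 86 lower (0.439%), and the median log2 fold was -0.03. Scaling by median absolute deviation, which the methods state, left 8 higher and 2 lower. Several marker lists differed in level between the labels. All 7 platelet genes had lower means, and 6 were called lower. Their summed normalized intensities were 4788 to 5571 on the arrays labelled wildtype and 312 to 1225 on those labelled null. The summed level of 7 erythroid genes was 2401 to 4376 against 5381 to 41306, with Hbb-bh1 called higher. The summed level of 10 early cartilage genes was 46840 to 54802 against 36459 to 43302. Non-overlapping groups were found for 7 of 7 platelet, 6 of 7 erythroid and 4 of these 10 cartilage genes. None of the cartilage genes was called singly. The markers of hindlimb mesenchyme, surface ectoderm, skeletal muscle, endothelium, macrophages and nerve gave no call either. Of these, groups did not overlap for the mesenchyme genes Prrx1 (log2 fold 1.18, limma adjusted p = 0.0994) and Msx1 (1.43, adjusted p = 0.29), with higher values on the arrays labelled null. The same held for the neuronal gene Stmn2 (-0.85, adjusted p = 0.17), with lower values. The muscle gene Myog was also apart, with higher values on the arrays labelled null. It was above background on 0 arrays labelled wildtype and 4 labelled null, and so passed the filter only through the group where it was high. Groups did not overlap for 7.13% of all genes tested. The mesenchyme list was mixed: 2 of its 7 tested genes had non-overlapping groups, 4 of 7 had negative folds, and the median log2 fold was -0.05. Its sums overlapped, at 15797 to 18399 on the arrays labelled wildtype and 15128 to 18288 on those labelled null. The summed levels were not tested. In sorted bulk RNA, fewer cells of a type and less RNA per cell cannot be told apart, and the part of these cells in the Wnt results was not tested.

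Of the 18 probes, 11 passed the filter, and they covered 7 of the 10 genes. None passed an adjusted p of 0.05, the threshold for a call (limma, two-sided, Benjamini-Hochberg over all 19568 probes), where 0.761% of all probes were. The adjusted p-values lay between 0.224 and 0.887. At an unadjusted p under 0.05 there were 5 of the 11 probes (45.5%), against 11.3% of all probes, and 3 of the 5 read Wnt5a. Counted by gene, with each gene read by its brightest tested probe, 2 of 7 had an unadjusted p under 0.05 (Wnt5a and Frzb), against 11.5% of all genes. The log2 fold of labelled null over labelled wildtype was positive for 9 of the 11 probes and had a median of 0.34. By gene it was positive for 5 of 7, with a median of 0.14 against -0.04 for all genes tested. Because probes to 1 gene share their RNA, they are not independent readings.

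**Figure D1:**
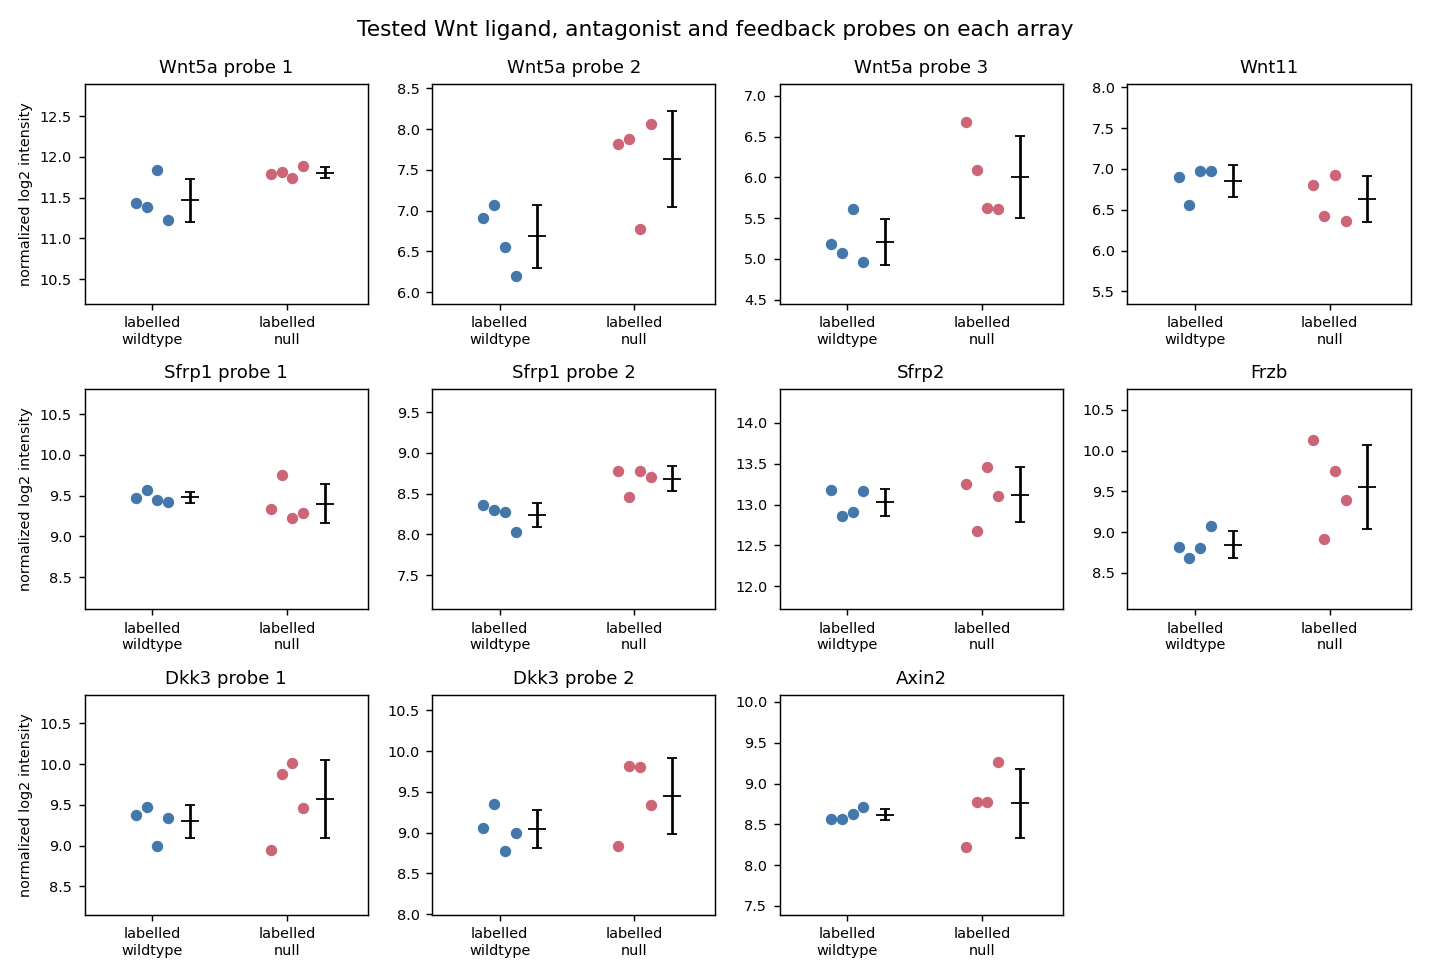
Normalized log2 intensity (y axis) of the 11 tested probes on each array, by label (x axis); dots are arrays in replicate order, and the bar gives the mean and SD of 4 arrays. All panels span the same range of log2 units, and only the second Sfrp1 probe has groups that do not overlap.

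Wnt5a, the ligand of limb outgrowth, was read by 3 probes, and all 3 had higher means on the arrays labelled null. The brightest (ILMN_2511913) stood at 11.44, 11.38, 11.84 and 11.22 log2 units on the arrays labelled wildtype and at 11.79, 11.81, 11.74 and 11.89 on those labelled null. The labelled null arrays lay close together, and wildtype replicate 3 fell inside their range. The difference was 0.34 ± 0.14 on the log2 scale (SE), a ratio of 1.27 (95% interval 1.01 to 1.58), with an adjusted p of 0.419 in limma.

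The second Wnt5a probe (ILMN_2472917) gave 6.91, 7.07, 6.56 and 6.20 against 7.82, 7.88, 6.77 and 8.06. Null replicate 3 sat within the range of the arrays labelled wildtype and the other three lay above it. The difference was 0.95 ± 0.30 (limma adjusted p = 0.26, n = 4 each), or 1.93-fold (1.21 to 3.07). Without null replicate 3 it was 1.23, with the lowest adjusted p that any of the 11 probes reached with an array left out or another setting (0.0646). The third probe (ILMN_1245294), annotated to a separate cDNA, was near background, above it on 2 arrays labelled wildtype and on 4 labelled null. It read 5.18, 5.07, 5.61 and 4.96 against 6.68, 6.09, 5.63 and 5.61, a difference of 0.80 ± 0.25 (limma adjusted p = 0.262). The upper bound of the 95% interval was 2.57-fold for this probe, and the 3 intervals share the range from 1.21 to 1.58.

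Wnt11, a ligand mostly linked to beta-catenin-independent signalling, stood at 6.90, 6.56, 6.97 and 6.97 on the arrays labelled wildtype and at 6.80, 6.42, 6.93 and 6.36 on those labelled null. The groups overlapped over most of their range. The log2 fold was -0.22 ± 0.17 (SE), and the 95% interval of the ratio ran from 0.663 to 1.11 (limma adjusted p = 0.669).

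Among the antagonists, Frzb had the largest fold of the 7 genes by main probe. Frzb, known for its expression in forming cartilage, stood at 8.82, 8.68, 8.81 and 9.08 on the arrays labelled wildtype. On those labelled null it stood at 10.13, 8.92, 9.75 and 9.40. The arrays labelled null were spread over a wider range, and null replicate 2 lay below wildtype replicate 4. The means were 8.85 ± 0.17 and 9.55 ± 0.51 (SD, n = 4), a difference that did not pass the test. The log2 fold was 0.70 ± 0.24 (SE), the ratio 1.63 with a 95% interval of 1.13 to 2.36, and the adjusted p 0.302 in limma. Of all genes tested, 96% had a smaller absolute fold and 85.6% a smaller spread within groups. The cartilage markers named above had the opposite sign in 9 of 10 genes, among them Col2a1 (-0.63 ± 0.15, adjusted p = 0.134) and Matn1 (-1.52 ± 0.35, adjusted p = 0.116).

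Sfrp1 was read by 2 probes that differed in direction. The brighter (ILMN_1231689) gave 9.47, 9.57, 9.45 and 9.42 against 9.34, 9.75, 9.22 and 9.29, a log2 fold of -0.08 ± 0.14 (limma adjusted p = 0.865), whose sign turned to 0.03 when arrays were scaled by median absolute deviation. The second (ILMN_2604282) gave 8.36, 8.30, 8.28 and 8.03 against 8.78, 8.46, 8.78 and 8.71. Every array labelled null was above every array labelled wildtype, which was so for 1 of the 11 probes and for 2.55% of all probes. Groups were apart in the other direction for 3.74% of all probes, and in either for 6.29%. Its log2 fold was 0.44 ± 0.13, or 1.36-fold (1.11 to 1.65), with an adjusted p of 0.224 in limma. In the deposited intensities, before normalization between arrays, the same probe read 444.9, 283.1, 355.1 and 191.9 against 411, 234.8, 446.9 and 367.6, so the groups were apart only after normalization. The 95% intervals of the 2 probes overlapped between 1.11 and 1.17, and the difference between the probes was not tested.

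Sfrp2 was measured far above background on every array, at 13.18, 12.86, 12.91 and 13.16 against 13.25, 12.67, 13.46 and 13.10. Arrays labelled null held both the highest and the lowest value. The log2 fold was 0.09 ± 0.18, with a 95% interval of the ratio from 0.809 to 1.4 (limma adjusted p = 0.887). Without null replicate 3 the log2 fold was -0.02.

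Of the Dickkopf genes, only Dkk3 passed the filter. Dkk3 carries the family's name and domain pattern but is not an established Lrp inhibitor. Its brightest probe (ILMN_2746556) gave 9.38, 9.47, 9.0 and 9.34 against 8.95, 9.88, 10.01 and 9.46. Its second (ILMN_2852957) gave 9.06, 9.35, 8.77 and 9.0 against 8.83, 9.82, 9.80 and 9.34. Null replicate 1 was low and null replicates 2 and 3 were high by both probes. The log2 folds were 0.28 ± 0.23 and 0.40 ± 0.23, with intervals of the ratio from 0.849 to 1.73 and from 0.923 to 1.9 (limma adjusted p = 0.692 and 0.562). The remaining Dkk3 probe was not above background on any array. Dkk1 had 1 probe, above background on 2 arrays labelled wildtype and 1 labelled null, and was not tested. It read 5.12, 4.91, 5.22 and 4.64 against 4.86, 4.70, 4.95 and 5.19, where the lowest signal that counted as detected lay between 4.99 and 5.20. The single Dkk2 probe had an intensity at or below 1 on all 8 arrays.

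Axin2, the feedback gene most often used as a readout of canonical signalling, stood at 8.57, 8.56, 8.63 and 8.71 on the arrays labelled wildtype. On those labelled null it stood at 8.22, 8.77, 8.77 and 9.26. Null replicate 1 lay below all arrays labelled wildtype and the other three lay above them. The log2 fold was 0.14 ± 0.20, the ratio 1.1 with a 95% interval of 0.812 to 1.5, and the limma adjusted p 0.838. Its sign turned without null replicate 4 (-0.03) and with median centring of each array (-0.01). The summed level of 3 skeletal muscle genes over the same arrays was 557, 661, 885 and 799 for the label wildtype and 381, 790, 1156 and 1344 for the label null. Of that list of 7, Myod1, Myf5, Pax3 and Pax7 did not pass the filter. On the arrays labelled null, the summed level of 5 macrophage genes (142, 197, 267 and 488) and the log2 level of Msx1 (7.52, 8.57, 8.96 and 10.30) were, like Axin2, lowest on replicate 1 and highest on replicate 4. The summed levels of the nerve, hindlimb mesenchyme and planar polarity lists followed the same pattern on these arrays. It was thus not particular to the genes shown. The platelet, endothelium, erythroid and surface ectoderm lists did not follow it. The early cartilage list ran the other way on these arrays (43302, 41261, 36601 and 36459). The values shown were picked after they were seen, and the part of these genes in the spread of Axin2 was not tested. Lef1, the nuclear partner of beta-catenin and itself a target, had 4 probes, and none was above background on any array. They bound Lef1 only from above.

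**Figure D2:**
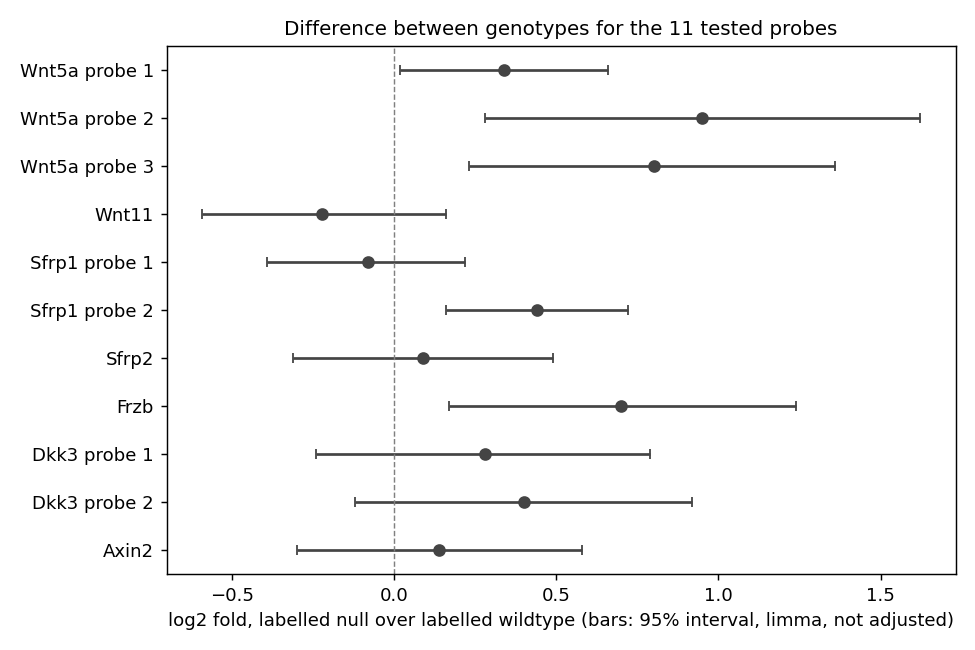
Log2 fold of labelled null over labelled wildtype (x axis) for the 11 tested probes (y axis); points are limma estimates from 4 against 4 arrays and bars the 95% interval, not adjusted for multiple testing. Of the intervals, 5 lie above 0 (3 of Wnt5a, the second Sfrp1 probe and Frzb).

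The members also differed in how far the arrays of a group lay apart. For 6 of the 7 genes by main probe (85.7%), the SD over the arrays labelled null was larger than over those labelled wildtype, which was so for 43.6% of all genes. The exception was Wnt5a (0.27 and 0.06). The SD of Axin2 was 0.07 over the arrays labelled wildtype and 0.42 over those labelled null, and that of Sfrp1 was 0.06 and 0.24. No 1 array led for all genes: null replicate 1 was highest for Frzb and lowest for Dkk3 and Axin2, null replicate 3 highest for Sfrp2 and Dkk3, and null replicate 4 highest for Wnt5a and Axin2.

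**Figure D3:**
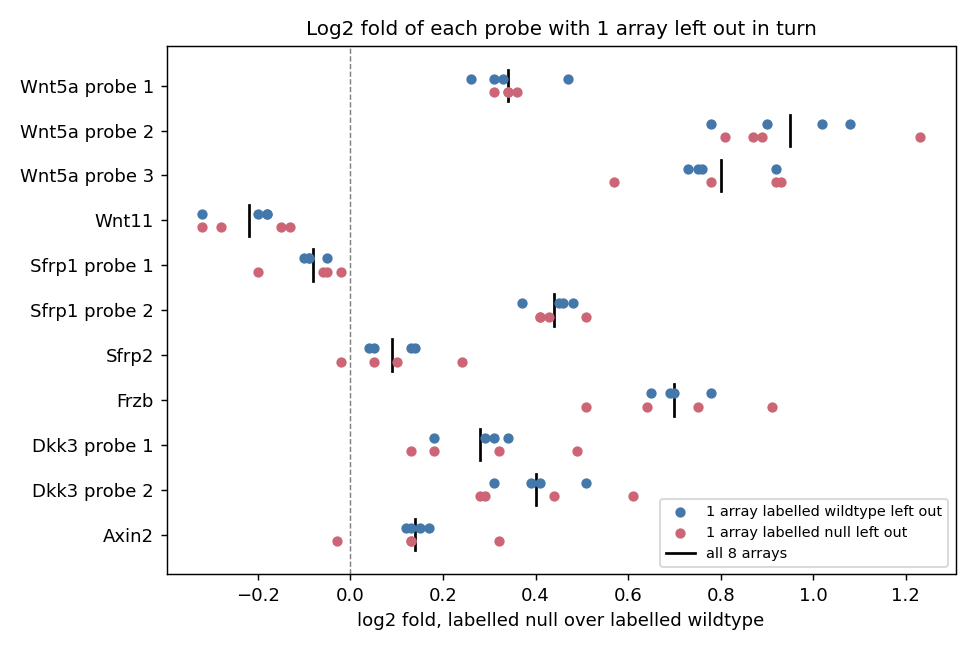
Log2 fold of labelled null over labelled wildtype (x axis) for each tested probe (y axis) with all 8 arrays (black line) and with 1 array left out (dots, coloured by the label of the array left out). The second Wnt5a probe ran from 0.78 to 1.23 and Frzb from 0.51 to 0.91, while Sfrp2 and Axin2 crossed 0.

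The rest of the pathway was read through 100 further Wnt genes, of which 97 had a probe and 59 passed the filter. By main probe, 1 of the 59 was called higher (Ror2) and 1 lower (Tle2), against 0.334% and 0.613% of all genes, and the median log2 fold was 0.05. Groups did not overlap for 10 of the 59, against 7.13% of all genes.

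Ror2, the tyrosine kinase receptor for Wnt5a, stood at 9.27, 8.95, 9.14 and 9.41 on the arrays labelled wildtype and at 9.85, 9.77, 10.05 and 9.96 on those labelled null. The groups did not overlap. It rose by 0.72 ± 0.13 on the log2 scale (SE), or 1.64-fold (1.34 to 2.02), with an adjusted p of 0.0494 in limma, close to the threshold. The call held without wildtype replicate 4 (adjusted p = 0.0416) but was lost without each of the other 7 arrays (adjusted p up to 0.173) and under 7 other settings. Among the other receptors, Fzd9 stood at 6.22 ± 0.20 and 5.48 ± 0.16 (SD) with a limma adjusted p of 0.0528 (0.0493 with a stricter detection filter and 0.024 with array weights), and Fzd5 at 8.19 ± 0.17 and 8.81 ± 0.25 (adjusted p = 0.139). Fzd6, a receptor of the planar polarity branch, was split between its probes. The dimmer probe was called higher (1.23 ± 0.14, adjusted p = 0.00412 in limma), but it was above background on only 1 of the 4 arrays labelled wildtype. Its log2 fold ran from 0.62 to 1.98 over the other settings, and the call was lost with scaling by median absolute deviation (adjusted p = 0.0795). By contrast, the brighter probe gave 0.12 ± 0.15 (adjusted p = 0.815).

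Tle2, a Groucho-type co-repressor that binds TCF/LEF factors, was lower by both of its probes. The brighter stood at 9.10, 8.94, 9.30 and 9.09 on the arrays labelled wildtype and at 8.12, 8.27, 8.08 and 7.88 on those labelled null, with no overlap. It fell by 1.02 on the log2 scale (SE 0.13, limma adjusted p = 0.0073), and the second probe fell by 1.12 (SE 0.15, adjusted p = 0.0119). The brighter probe passed with each array left out (adjusted p 0.0159 to 0.0364), but not after scaling by median absolute deviation (log2 fold -1.0, adjusted p = 1). The second probe lost its call without wildtype replicate 3 (adjusted p = 0.0615), with that scaling (0.799), with the deposited log2 table (0.0793) and with the methods' t-test (0.0698). Its relative Tle3 had a log2 fold of 0.34 ± 0.12 (adjusted p = 0.323), Tcf7l1 one of -0.29 ± 0.12 (adjusted p = 0.416), and the TCF factors and partners other than Tle2 lay between -0.29 and 0.46 by main probe. Dimmer probes went beyond that range without a call, such as 1 of Tle4 (0.92, adjusted p = 0.139) and 1 of Tle1 (-0.50, adjusted p = 0.281).

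By main probe, none of the remaining lists gave a call, and the values that follow are those of main probes. Fzd6, which is also on the planar polarity list, was called by its dimmer probe as given above. Of 17 other Wnt ligands, 15 were below the filter, and Wnt4 and Wnt5b had log2 folds of 0.22 and -0.01. The acyltransferase Porcn and the carrier Wls, which Wnt secretion needs, gave -0.04 and -0.32 (adjusted p = 0.95 and 0.5). In the R-spondin axis 2 of 9 genes passed the filter, the receptor Lgr5 (-0.57 ± 0.25) and its ligand Rspo3 (-0.29 ± 0.16). Among planar polarity genes, 3 of 9 tested had non-overlapping groups, against 7.13% of all genes. Prickle1 (0.83 ± 0.20, adjusted p = 0.14) and Vangl2 (0.40 ± 0.12, adjusted p = 0.237) had higher means on the arrays labelled null, and Daam1 (-0.32 ± 0.11, adjusted p = 0.311) a lower one. Groups overlapped by the dimmer Prickle1 probe (0.61 ± 0.38, adjusted p = 0.595). They also overlapped by the dimmer tested Daam1 probes, which ran from -0.22 to 0.10. Among other targets, Tnfrsf19 gave 0.68 ± 0.16 (adjusted p = 0.122) and the cyclin Ccnd1 0.11 ± 0.12 (adjusted p = 0.761). The probes of Ccnd1 were split, since its dimmest gave 1.21 ± 0.36 (adjusted p = 0.237) and the other 0.21 ± 0.11 (adjusted p = 0.531). The destruction complex and Dishevelled genes lay between -0.29 and 0.22, with the ubiquitin ligase subunit Btrc (-0.29 ± 0.13), Dishevelled Dvl1 (-0.22 ± 0.11) and the kinase Csnk1d (0.22 ± 0.12) at limma adjusted p-values of 0.46, 0.498 and 0.542. Over all tested probes of these genes the range was -0.62 (Btrc) to 0.79 (Ctnnb1, beta-catenin, adjusted p = 0.459), with no call.

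The heparan sulphate carriers Gpc3 and Gpc4, which hold Wnt ligands at the cell surface, had wide spreads. Gpc3 stood at 10.75, 13.92, 11.33 and 11.40 against 13.53, 13.63, 12.28 and 12.96, a log2 fold of 1.25 ± 0.62 (limma adjusted p = 0.498). Wildtype replicate 2 was above all other arrays, and without it the fold was 1.94 with an adjusted p of 0.0499. A second, slightly dimmer Gpc3 probe gave 1.70 ± 0.72 (limma adjusted p = 0.417). Without wildtype replicate 2 it gave 2.50, with an adjusted p of 0.0283. Gpc4 stood at 6.62, 6.57, 6.68 and 6.87 against 6.67, 7.73, 7.95 and 7.80 (0.85 ± 0.26, adjusted p = 0.246). Null replicate 1 was within the range of the arrays labelled wildtype, and without it the fold was 1.15 with an adjusted p of 0.00885. Sostdc1, a secreted antagonist, had a fold of 0.53 ± 0.27 (adjusted p = 0.5), and 0.83 with an adjusted p of 0.0466 without null replicate 1. With another array left out, the limma adjusted p reached 0.827 for the brighter Gpc3 probe, 0.52 for Gpc4 and 0.761 for Sostdc1. The omissions given above were those with the lowest adjusted p, picked after the values were seen.

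**Figure D4:**
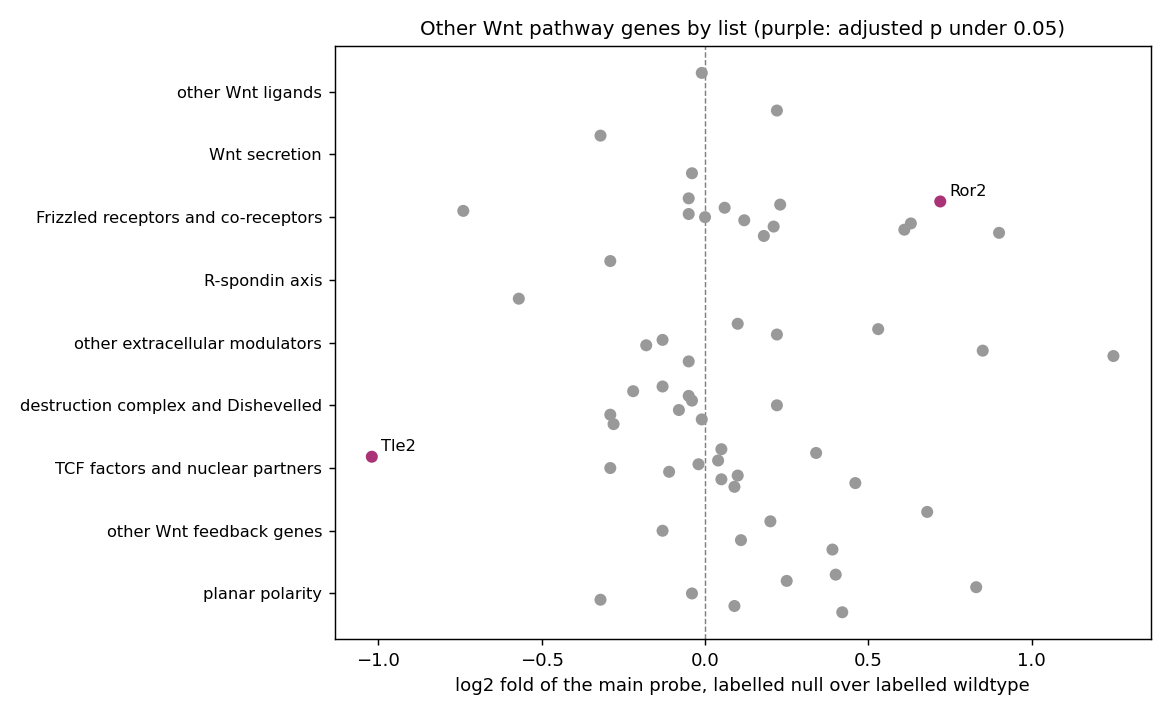
Log2 fold of labelled null over labelled wildtype (x axis) of the 59 other Wnt pathway genes that passed the filter, by list (y axis); each dot is 1 gene by its brightest tested probe, and purple dots were called changed. Ror2 (0.72) and Tle2 (-1.02) were the only calls by main probe, and a gene on 2 lists is drawn once.

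RefSeq promoter windows (GRCm38.p6, 250 bases before to 50 after a start) were held for 7 of the 10 genes, in 11 windows, and they were searched on both strands for 2 short motifs. The letters TGAGTG or TAAGTG, a core bound by Nkx3-type homeodomains, lay in 2 of the 11 windows (of Axin2 and Wnt11) and in 23.9% of all windows. The TCF/LEF core CTTTGA lay in 4 of the 11 (of Dkk1, Frzb, Lef1 and Wnt11) and in 16% of all windows. The stretches of tested genes are shown because these genes have an expression value beside them. Each is 30 bases, read 5′ to 3′ along the gene's strand, with the match in capitals.
Axin2 (Bapx1 motif, chr11:108920254-108920283, plus strand): taacgcgggagcTGAGTGtgccacgggggc
Wnt11 (Bapx1 motif on the opposite strand, chr7:98834872-98834901, plus strand): gcgcgccgctggCACTCAacaggcatgctt
Wnt11 (TCF/LEF core on the opposite strand, chr7:98835050-98835079, plus strand): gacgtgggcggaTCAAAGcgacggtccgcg
Frzb (TCF/LEF core on the opposite strand, chr2:80447474-80447503, minus strand): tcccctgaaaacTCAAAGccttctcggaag
Counted from the gene start, the matches lie at position -83 in Axin2, -228 and -50 in Wnt11 and -95 in Frzb. The genes with a TCF/LEF match that were tested had log2 folds of 0.70 (Frzb) and -0.22 (Wnt11), and those with a Bapx1 match 0.14 (Axin2) and -0.22 (Wnt11). A match describes letters in a window and shows no binding.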

How the data were processed

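Intensities and detection scores of 8 arrays, 4 labelled wildtype and 4 labelled null, were analysed. The deposited intensities had been background-subtracted by the authors in GenomeStudio (its version is not in the sources read) and not normalized between arrays. The deposited detection scores increase with brightness and were read as 1 minus a detection p-value. A second deposited table, of log2 values, was used as an alternative and to pair probes with gene symbols: all 45281 rows matched an intensity row (largest difference 1.6e-06), 6964 of them only as rows at or below 1 on all arrays. The direction of the log2 table follows the intensities, but its constant per probe is unknown; its column medians were -0.03, -0.03, -0.04 and 0.42 (wildtype replicates 1 to 4) and 0.01, 0.17, 0.10 and 0.03 (null). The methods state scaling by median absolute deviation.

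Here intensities were corrected, given an offset of 16 and quantile normalized with neqc (limma 3.58.1, R 4.3.3), with negative controls inferred from detection p. Genotypes were compared with lmFit and eBayes, without covariates; the number of arrays limits precision (median SE 0.165). Folds are labelled null over labelled wildtype. Where a group was not above background, the fold is a lower bound from the lowest detected signal. Groups came from the sample titles. The members and lists were chosen with earlier results of these data known. By rule, all members, the targeted gene, and of each Wnt list the called genes and up to 3 with the smallest p were named. Outside this rule, Fzd6 by its dimmer probe, single uncalled marker genes and further probes of Wnt genes were named after their values were seen. Genes without a probe in the annotation were not analysed here. The steps were tested on simulated data. Background correction, normalization, filter, variance model, test, replicate block and single arrays left out were varied.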

Additional observations from a re-analysis of the deposited data

Results flagged for a closer look

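Among 72 groups of 4 arrays (the tested member probes, the other named Wnt genes by main probe and the targeted gene), 5 held 1 array far from the rest by Dixon's ratio, a mark that chance gives in about 1 group of 20. None was a member's. Lgr5 read 5.19 on wildtype replicate 4, against 5.81 to 5.82 on the other three. On null replicate 2, Dvl1 read 8.59 (others 8.38 to 8.41) and Csnk1d 10.07 (others 9.91 to 9.92). Tcf7l1 read 11.53 on wildtype replicate 2 (others 11.69 to 11.72), and Vangl2 9.18 on null replicate 4 (others 9.26 to 9.28). Explanations were not tested.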

How the results depend on the processing

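No member probe was called under the 12 other settings or with any of the 8 arrays left out. Of 219 member folds recomputed, 215 kept their sign and 4 turned: Sfrp1 (brighter probe) to 0.03 with scaling by median absolute deviation, Axin2 to -0.01 with median centring and -0.03 without null replicate 4, and Sfrp2 to -0.02 without null replicate 3 (ranges with 1 array left out -0.03 to 0.32 for Axin2 and -0.02 to 0.24 for Sfrp2). Of 593 folds of 30 other probes 9 turned: Wnt5b to 0.06 and Porcn to 0.02 with median absolute deviation scaling, Ccnd1 to -0.01 with median centring, and with 1 array left out Wnt5b ran from -0.13 to 0.12 and Porcn from -0.11 to 0.04, each turning for 3 arrays. The count over all probes, 149, became 59 with floored intensities, 10 with median absolute deviation scaling (8 higher and 2 lower, against 63 and 86), 65 with the deposited log2 table, 97 with detection on all 8 arrays, 267 with array weights and 53 with the methods' t-test, and 59 to 150 with 1 array left out (83 higher and 67 lower without null replicate 1). The median log2 fold over all probes was -0.14 with median centring and -0.11 with the deposited log2 table. The 2 calls among other Wnt genes became 1 with floored intensities, median centring, the deposited log2 table, no filter or the methods' t-test, 0 with median absolute deviation scaling, 3 (Fzd9 added) with detection p under 0.01 or array weights, and 1 to 3 with 1 array left out. Causes were not tested. The replicate numbers gave no clear pairing of the samples, and so few arrays cannot exclude one. Correlations of same-numbered arrays were 0.07, 0.46, 0.26 and -0.31, with 2 of 4 arrays closest to their own number. With the replicate number as a block, 108 probes, 0 member probes and 1 other Wnt gene were called. A chip block was not run, since the headers name no chips. Signal near background limits Dkk1, Dkk2, Lef1 and the third Wnt5a probe.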
